A study of Mus musculus with 6 samples.

Results

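The 8 genes described here encode DNA repair proteins that act in immunoglobulin class switching, and they were chosen by name: *Ung*, *Apex1*, *Msh6*, *Exo1*, *Trp53bp1*, *Rif1*, *Lig4* and *Xrcc4*. They are 8 of the 54446 genes in the table, and all 8 were among the 12322 genes tested, those that averaged 10 or more normalized counts. A normalized count is the number of sequenced fragments assigned to a gene divided by the size factor of its library.

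RNA was taken from B cells of mouse spleen on day 7 of culture, which held IL-4 at 20 ng/ml together with LPS at 20 µg/ml. Splenic B cells had been purified by removal of other cells before the culture, so every library comes from stimulated cells and no resting cells were analysed here. The 3 WT and 3 KO libraries form 3 pairs. Each pair is a batch with cells of a KO mouse, made with Cas9 to lack TENT5C in the whole animal, and of its WT littermate, from matings of heterozygous parents on a mixed C57BL/6J and CBA background, at an age of 12 to 15 weeks. Mice of both sexes were used in the study, and which sex each library has was not used here. Each library had from 5393558 to 6793520 fragments in genes.

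Class switching replaces the constant region of the antibody heavy chain, and B cells stimulated with LPS and IL-4 are a standard culture for it. A deaminase turns cytosines of the switch regions into uracils, and base excision repair or mismatch repair then turns these into DNA breaks. Break signalling proteins protect the broken ends from resection, and classical end joining connects the distant switch regions. Many of these proteins serve repair in every dividing cell, and some of their genes are expressed with the cell cycle.

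*Tent5c* (ENSMUSG00000044468, chromosome 3 of GRCm38, 100451628 to 100489324), the targeted gene, had 1255, 767 and 1585 normalized counts in WT 1, 2 and 3 and 1993, 993 and 1170.4 in the libraries labelled KO 1, 2 and 3. Its count was higher in KO in pairs 1 and 2 and lower in pair 3 (log2 fold change 0.20, SE 0.19, adjusted *p* = 0.970 in limma). Counts of *Tent5c* thus do not separate the genotypes. Which bases the allele lacks was not used here, so these counts check neither genotype, and each direction given below rests on the labels of the libraries.

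The cell type was checked against marker lists. The 8 B cell markers summed to between 50665 and 58699 normalized counts per library, led by *Cd74*, the invariant chain of MHC class II. Of these, 2 of 8 were lower in KO in all 3 pairs and 2 of 8 lower at an unadjusted *p* under 0.05 in limma, where 13.1% and 3.03% of all genes tested were, and 0 passed after adjustment. The other way, 0 of 8 were higher in KO in all 3 pairs, where 11.7% of all genes tested were. At an unadjusted *p* under 0.05 in limma, 0 of 8 were higher, where 1.67% were. With no overlap between the genotypes, 1 of 8 was lower and 0 higher, where 3.44% and 3.39% were. By sign, 5 of 8 had a negative and 3 a positive log2 fold change. The median log2 ratio of the 8 was −0.11, −0.12 and 0.12 in pairs 1, 2 and 3, so the pairs differed in direction. The 7 plasma cell markers were led by *Xbp1*, a transcription factor of secretory cells, and summed to 15972, 12008 and 24686 in WT 1, 2 and 3 and to 20451, 11617 and 14567 in KO 1, 2 and 3. The genotypes thus overlapped in this sum, and the pairs differed in its direction. Of the 6 plasma cell markers tested, 1 was lower in KO in all 3 pairs, where 13.1% of all genes tested were. This was *Mzb1*, named after its values were seen. It was also the 1 of 6 lower at an unadjusted *p* under 0.05 in limma, where 3.03% were. The other way, 0 of 6 were higher in all 3 pairs, where 11.7% were. None of the 10 T cell markers had a mean of 10, with a sum of at most 80.7 (led by *Trbc2*), and none of the 7 erythroid markers did either, with a sum of at most 5.72 (led by *Klf1*; *Hba-a1*, *Hba-a2* and *Hbb-bs* were at 0). The 10 myeloid markers summed to at most 167 (led by *Cd68*; *S100a8*, *S100a9* and *Ly6g* were at 0) and the 6 NK cell markers to at most 21.8 (led by *Prf1*). In such bulk RNA, fewer cells of a type and less RNA per cell cannot be told apart.

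**Figure D1:**
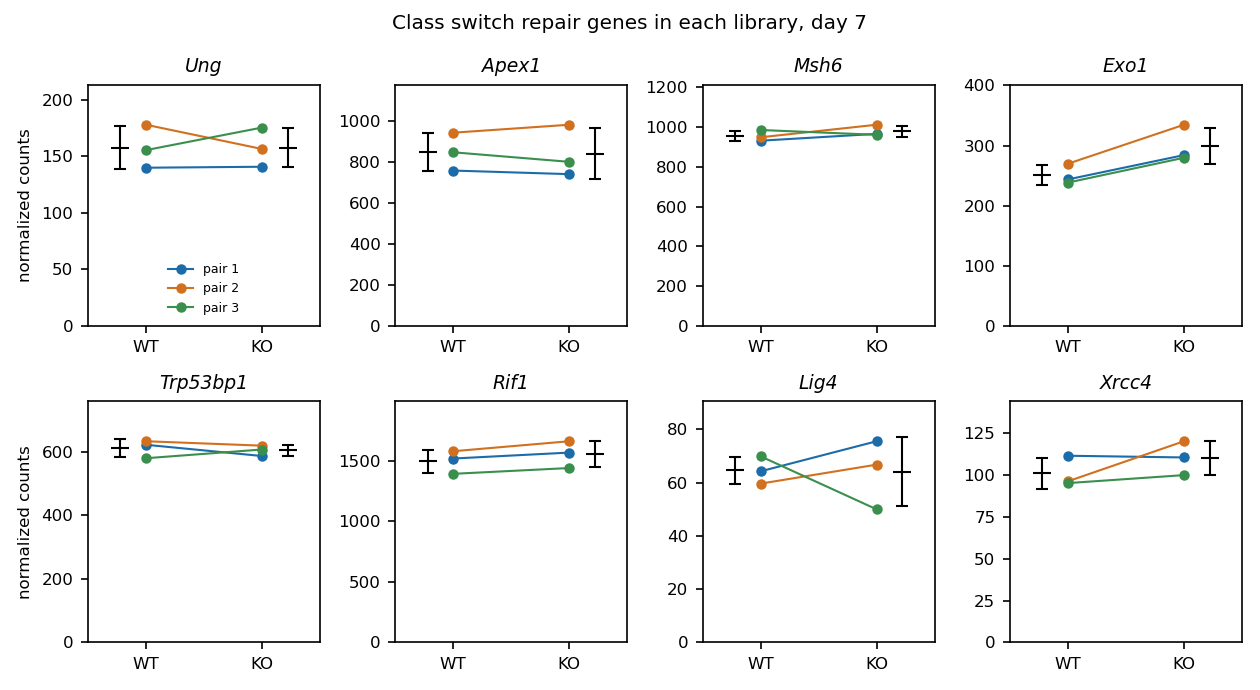
Normalized counts (y axis, from 0) of the 8 genes in each library, with a line between the WT and KO libraries of a pair and the mean ± SD (n = 3) of each genotype in black at the sides. For *Exo1* all 3 lines go up and the lowest KO library, at 279.7, lies above the highest WT library, at 269.8.

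Uracil removal begins with *Ung* (ENSMUSG00000029591, chromosome 5, 114130386 to 114139323), the uracil DNA glycosylase. It had 139.8, 178 and 155 normalized counts in WT 1, 2 and 3 and 141, 156 and 175 in KO 1, 2 and 3. The genotypes overlapped, and the means were nearly equal, at 158 ± 19.1 in WT and 157 ± 17.3 in KO (SD, n = 3). The KO/WT ratios of pairs 1, 2 and 3 were 1.01, 0.879 and 1.13, so the pairs did not share a direction. The log2 fold change of *Ung* was −0.00078 with a 95% interval from −0.28 to 0.28 (adjusted *p* = 0.999 in limma), an interval that leaves room for a change of up to 1.21-fold.

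*Apex1* (ENSMUSG00000035960, chromosome 14, 50924968 to 50927139) encodes the endonuclease that cuts DNA at the site left by removal of the uracil. It had 757, 942 and 846 normalized counts in WT 1, 2 and 3 and 739.9, 981 and 800.0 in KO 1, 2 and 3. Pair 2 was the highest in both genotypes, and the spread between pairs was larger than the difference between genotypes, with 849 ± 92.3 in WT and 840.2 ± 125 in KO (SD, n = 3). The KO/WT ratios were 0.977, 1.04 and 0.945 in pairs 1, 2 and 3. With the pair as a block the log2 fold change was −0.02, with a 95% interval from −0.18 to 0.14 (adjusted *p* = 0.990 in limma).

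On the mismatch repair side, *Msh6* (ENSMUSG00000005370, chromosome 17, 87975062 to 87990892) encodes a subunit of the complex that recognizes mispaired bases, including uracil opposite guanine. Its counts were 931, 948 and 985 in WT 1, 2 and 3 and 965, 1011 and 961 in KO 1, 2 and 3. All 6 libraries thus lay close together, with a standard deviation of 2.91% of the mean, about the 3.20% that counting alone gives at this depth. The KO/WT ratios were 1.04, 1.07 and 0.975, and the log2 fold change was 0.04 with a 95% interval from −0.12 to 0.19 (adjusted *p* = 0.974 in limma).

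*Exo1* (ENSMUSG00000039748, chromosome 1, 175880581 to 175913489) encodes the exonuclease that removes a stretch of 1 DNA strand in mismatch repair. It had 244, 269.8 and 238 normalized counts in WT 1, 2 and 3 and 284, 335 and 279.7 in KO 1, 2 and 3. Every KO library lay above every WT library, with 251 ± 16.8 in WT and 299 ± 30.5 in KO (SD, n = 3), and *Exo1* was the only member whose genotypes did not overlap. The KO/WT ratios were 1.17, 1.24 and 1.17 in pairs 1, 2 and 3. On the log2 scale the difference was 0.25 (SE 0.08, 95% interval 0.05 to 0.45), and it did not pass the threshold after adjustment over all genes (adjusted *p* = 0.970 in limma). Of all genes tested, 3.39% lay higher in KO with no overlap between the genotypes, against 1 of the 8 members, and *Exo1* ranked 243 of 12322 by *p*-value.

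Break signalling and end protection are represented by 53BP1 and its partner. *Trp53bp1* (ENSMUSG00000043909, chromosome 2, 121193281 to 121271407), the gene of 53BP1, a chromatin reader that shields broken ends, had 621, 633 and 579 normalized counts in WT 1, 2 and 3 and 586, 619 and 607 in KO 1, 2 and 3. The KO libraries lay within the range of the WT libraries, and KO/WT was 0.943, 0.978 and 1.05 in pairs 1, 2 and 3. The log2 fold change was −0.02 with a 95% interval from −0.18 to 0.15 (adjusted *p* = 0.992 in limma).

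*Rif1* (ENSMUSG00000036202, chromosome 2, 52072832 to 52122383) encodes the protein that 53BP1 recruits to block resection and that also times DNA replication. It had 1519.5, 1579.8 and 1393 normalized counts in WT 1, 2 and 3 and 1569, 1662 and 1441 in KO 1, 2 and 3. The KO library was the higher one in each pair, by ratios of 1.03, 1.05 and 1.03, while the genotypes overlapped, and pair 3 was the lowest in both. The standard deviation over the log2 ratios of the 3 pairs was 0.015. Counting alone gives a spread of 2.54% of the mean between libraries at this depth, so ratios this close to 1 lie near counting error. The log2 fold change was 0.06 with a 95% interval from −0.08 to 0.19 (adjusted *p* = 0.970 in limma), so an increase of more than 1.14-fold lay outside the interval.

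*Lig4* (ENSMUSG00000049717, chromosome 8, 9969049 to 9977686), the ligase of classical end joining, was the member with the fewest fragments, 55 to 80 per library. It had 64.2, 59.6 and 69.8 normalized counts in WT 1, 2 and 3 and 75.5, 66.7 and 49.9 in KO 1, 2 and 3. KO 3 was the lowest of all 6 libraries and KO 1 the highest, with KO/WT ratios of 1.176, 1.12 and 0.715 in pairs 1, 2 and 3. Counting alone gives a spread of 12.4% of the mean at this depth, against 13.7% observed. The log2 fold change was −0.03, and its 95% interval from −0.50 to 0.44 was the widest of the members (adjusted *p* = 0.992 in limma).

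*Xrcc4* (ENSMUSG00000021615, chromosome 13, 89774027 to 90089608) encodes the partner that stabilizes this ligase. It had 111, 96.2 and 95.1 normalized counts in WT 1, 2 and 3 and 110.4, 120.1 and 99.9 in KO 1, 2 and 3. KO 2 stood highest, and the ratios of 0.991, 1.25 and 1.05 show that pair 2 carried most of the difference between the means. The log2 fold change was 0.12 with a 95% interval from −0.19 to 0.44 (adjusted *p* = 0.970 in limma). *Lig4* and *Xrcc4*, whose products form 1 complex, had ratios on opposite sides of 1 in pairs 1 and 3. In pair 1, however, *Xrcc4* had 118 fragments in WT and 117 in KO, hardly a direction. Its spread over the 6 libraries was 9.46% of the mean, against 9.67% from counting alone.

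**Figure D2:**
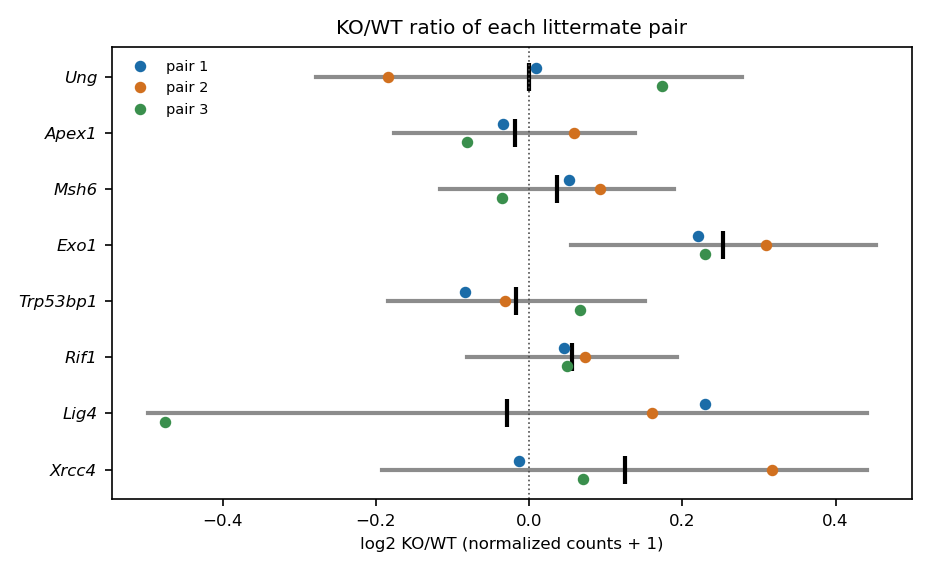
Log2 KO/WT ratio (x axis, on normalized counts + 1) of the 8 genes in pairs 1, 2 and 3 (points), with the log2 fold change (black bar) and its 95% interval in limma (grey line). *Exo1* is the gene whose interval lies above 0, from 0.05 to 0.45, and *Lig4* has the widest spread, from −0.48 to 0.23.

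Taking the 8 genes as a list, 4 had a positive and 4 a negative log2 fold change, and 6 of 8 were within 0.1 of 0. Of all 12322 genes tested, 6187 had a positive log2 fold change and 6492 were within 0.1 of 0. The median log2 fold change was 0.02, beside 0.00067 for all 12322 genes, and it was 0.066 without replicate 3. Pair by pair, the median log2 ratio of the 8 genes was 0.03, 0.08 and 0.06, a small positive value in each. Counts of genes that kept a direction in every pair were read against all genes tested. *Exo1* and *Rif1* were higher in KO in all 3 pairs, 2 of 8 where 11.7% of all genes tested were, and 0 of 8 were lower in all 3 pairs where 13.1% of all genes were. At an unadjusted *p* under 0.05 in limma, 1 of 8 was higher in KO (*Exo1*), where 1.67% of all genes were, and 0 of 8 lower, where 3.03% were. The same count was 1 in edgeR and 0 in DESeq2, which was run on all 24684 genes with a fragment, and in limma it was 0 without replicate 1 and 0 without replicate 2. After adjustment limma called 0 of the 8 and 0 of the 12322 genes (0%), with 206 higher and 373 lower at an unadjusted *p* under 0.05. edgeR called 0, and DESeq2 called 22 lower and 1 higher of the 24684 genes it was given, with 0 members among them. With so few members, these counts do not set the list apart from the other genes.

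The levels of the members spanned a wide range. Per kb of exon, with all annotated exons of a gene merged, *Apex1* had 594 ± 69.3 normalized counts (SD over all 6 libraries), *Msh6* 222 ± 6.48 and *Rif1* 145 ± 9.35. All 3 lay above the median of all genes tested, 45.0 per kb. *Trp53bp1* was just under that median at 42.9 ± 1.48 per kb, followed by *Exo1* at 32.7 ± 4.11, *Ung* at 28.8 ± 2.98, *Xrcc4* at 25.0 ± 2.37 and *Lig4* at 12.4 ± 1.70. The level per kb of *Apex1* was 48.0 times that of *Lig4*. In this order the ranges of *Exo1* and *Ung* overlapped, as did those of *Ung* and *Xrcc4*, and each of these neighbours kept its order in 4 of 6 libraries. *Exo1* lay below *Ung* in WT libraries only. The means of *Exo1* and *Ung* were 29.8 and 28.8 per kb in WT and 35.6 and 28.8 in KO. The other neighbours kept their order in 6 of 6 libraries with no overlap. Within a step of the pathway the levels per kb were unequal, since *Apex1* had 20.6 times the level of *Ung* and *Msh6* 6.81 times that of *Exo1*. Part of this comes from the merged exon lengths, 1.42 kb for *Apex1*, 5.47 for *Ung*, 4.35 for *Msh6* and 8.42 for *Exo1*. Before division by length, the mean normalized counts over the 6 libraries were 844, 158, 967 and 275 in the same order. Merged exons can be longer than the transcripts present, and which transcripts were present was not tested.

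**Figure D3:**
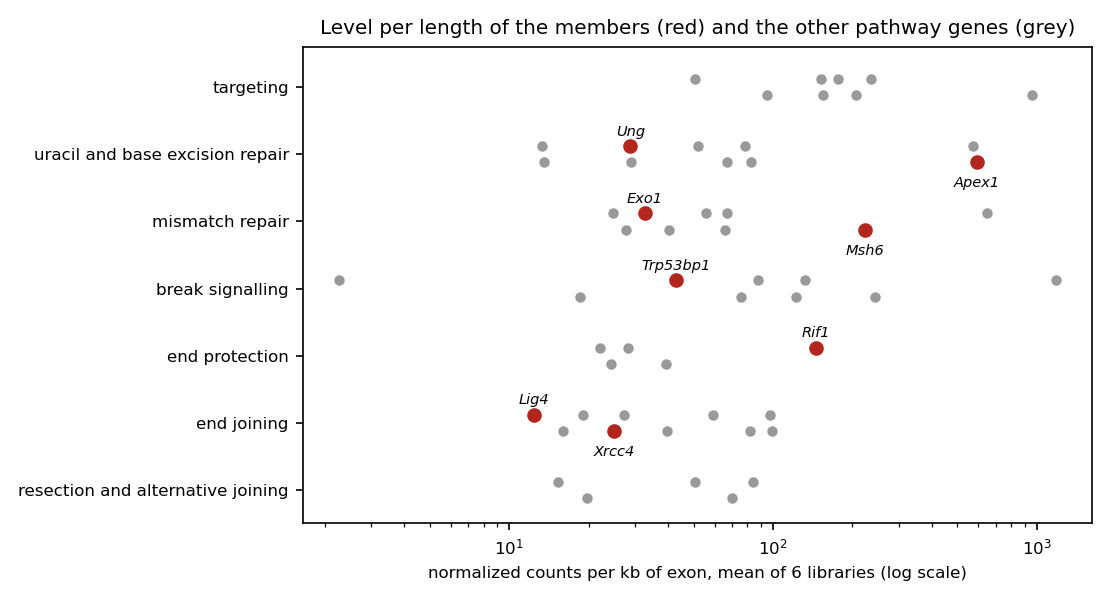
Mean normalized counts per kb of exon over the 6 libraries (x axis, log scale) of the 8 members (red, named) and the other pathway genes that averaged 10 or more normalized counts (grey), by role (y axis). *Apex1* at 594 and *Lig4* at 12.4 per kb are the highest and the lowest member.

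A list of 50 other genes of the pathway gave the surroundings of the members, and 48 of them were tested. In limma 0 of the 48 passed the adjusted threshold, as in edgeR and DESeq2, and 1 was higher and 0 lower at an unadjusted *p* under 0.05, where 1.67% and 3.03% of all genes tested were. Their median log2 fold change was 0.04, with 26 higher and 22 lower, 10 higher in all 3 pairs and 4 lower in all 3 pairs, where 11.7% and 13.1% of all genes tested were. By role, counting members and others together, the median was −0.02 for the 8 genes of targeting, 0.05 for the 10 of uracil and base excision repair and 0.04 for the 9 of mismatch repair. It was 0.00097 for the 9 genes of break signalling, −0.07 for the 5 tested of end protection, 0.08 for the 10 of end joining and 0.11 for the 5 of resection and alternative joining. The pairs disagreed in sign in 5 roles, with pair medians of −0.03, 0.03 and 0.05 for targeting, 0.02, −0.03 and 0.14 for break signalling, 0.05, 0.07 and −0.19 for end protection, 0.04, 0.24 and −0.02 for end joining and 0.12, −0.05 and 0.06 for resection and alternative joining.

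The gene under 0.05 was *Lig1*, the replicative DNA ligase that also serves alternative joining, with 328, 344 and 332 normalized counts in WT 1, 2 and 3 and 357, 383 and 411 in KO 1, 2 and 3. Its genotypes did not overlap, and its log2 fold change was 0.19 (SE 0.08, adjusted *p* = 0.970 in limma). Its unadjusted *p* lay close to 0.05 and was under it in 6 of 12 alternatives, not in edgeR, DESeq2, with a pseudocount of 5 or in any fit without 1 pair. With no overlap between the genotypes, 4 of the 48 genes were higher in KO and 0 lower, where 3.39% and 3.44% of all genes tested were. *Rnf8*, a ubiquitin ligase that acts before 53BP1, had 25.5, 18.8 and 20.5 normalized counts in WT 1, 2 and 3 and 34.9, 27.6 and 31.8 in KO 1, 2 and 3. It was higher in KO in all 3 pairs with no overlap (log2 fold change 0.53, 95% interval −0.03 to 1.09, adjusted *p* = 0.970 in limma). It rests on 17 to 37 fragments per library, and 1542 bases of its exons are shared with *Gm28043* on the same strand, so its count is uncertain. *Nhej1*, the gene of the end joining factor XLF, was also higher in each pair, with 18.9, 11.5 and 15.7 in WT 1, 2 and 3 and 20.8, 17.2 and 23.6 in KO 1, 2 and 3. Its genotypes overlapped, its log2 fold change was 0.41 with a 95% interval from −0.29 to 1.11 (adjusted *p* = 0.970 in limma), and it had 11 to 26 fragments per library.

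Several of the partners of the members were the most abundant of their role per kb of exon. *H2afx*, the histone variant that marks breaks, had 1183 normalized counts per kb, and *Pcna*, the sliding clamp that mismatch repair shares with replication, had 649. In end joining *Prkdc*, the catalytic subunit of DNA-PK, led with 99.1 per kb, though it was above the next gene in 4 of 6 libraries only, and in resection and alternative joining *Lig1* did with 84.2. *Rif1* led end protection and *Apex1* base excision repair, the latter in 6 of 6 libraries although its range overlapped that of the next gene. At the other end of their roles were *Ptbp2* in targeting at 50.7 per kb, *Apex2* in base excision repair at 13.3 (below the next gene in only 3 of 6 libraries), *Mlh3* in mismatch repair at 24.7 (in 5 of 6) and *Rnf8* in break signalling at 2.27. *Lig4* was the lowest of end joining, in 5 of 6 libraries. *Pagr1a* was at 0 in 5 libraries and had 2 fragments in KO 2, and since its exons overlap those of a second gene copy, *Pagr1b*, its count is uncertain. The log2 fold changes in limma were 0.11 for *H2afx*, 0.06 for *Pcna*, 0.06 for *Prkdc*, −0.04 for *Ptbp2*, 0.15 for *Apex2* and −0.0078 for *Mlh3*, and none passed the threshold.

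A list of 20 proliferation genes was read beside the members, since part of the repair genes are expressed with the cell cycle. All 20 were tested, and they were led by *Top2a*, the topoisomerase of dividing cells. Their sum was 22758, 26349 and 24418 normalized counts in WT 1, 2 and 3 and 24976, 28264 and 24517 in KO 1, 2 and 3. The KO library was thus the higher one in each pair, and pair 2 was the highest in both genotypes. Among the members, this was also so for *Exo1* and *Rif1*. The median log2 fold change of the list was 0.09, and it was 0.039 without replicate 1. Of the list, 15 of 20 were higher, where 6187 of all 12322 genes tested were. Pair by pair, its median log2 ratio was 0.12, 0.08 and 0.02 in pairs 1, 2 and 3. In all 3 pairs 8 of 20 were higher and 1 lower, where 11.7% and 13.1% of all genes tested were, and 0 were past the adjusted threshold in limma, edgeR or DESeq2 (0 at an unadjusted *p* under 0.05 in limma). The part of proliferation in the *Exo1* and *Rif1* values was not tested.

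Correlations between the members were taken across the 6 libraries. For *Msh6*, *Trp53bp1*, *Xrcc4* and *Lig4* the spread over the libraries was 2.91%, 3.46%, 9.46% and 13.7% of the mean. Counting alone gives 3.20%, 4.04%, 9.67% and 12.4%, so correlations of these genes cannot be told from counting error. Whether the members move as 1 group can therefore not be read from these values. Of the pairs of members, *Exo1* and *Rif1* were the most alike, with a Pearson r of 0.75 on the log2 scale, and *Ung* and *Lig4* the least, with −0.75. Among the 9587 other genes that averaged 50 or more normalized counts, the gene most like each member was *Mdn1* for *Ung*, *Hmgn1* for *Apex1*, *Cfap36* for *Msh6*, *Fam83d* for *Exo1*, *Wdr5b* for *Trp53bp1*, *Tmem170b* for *Rif1*, *Msrb1* for *Lig4* and *Cul4a* for *Xrcc4*. These r lay between 0.98 and 0.997 and Spearman's rho between 0.886 and 1.00. Between 42 genes (for *Lig4*) and 268 genes (for *Apex1*) had an r over 0.9 with a member, and the libraries share their batches and scaling, so these values only describe the 6 libraries.

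Promoter sequences of RefSeq (GRCm38.p6, 300 bases around a gene's start, on the gene's strand) were at hand for 6 of the 8 members, *Lig4* having a pair of them. For *Exo1* and *Rif1* no promoter was at hand, so these genes were not searched. These letters were searched on both strands: an E2F type (TTTCCCGC or TTTGGCGC), a CCAAT box (CCAAT) and a GC box (GGGCGG). The GC box was found in all 6 genes and 6 of their 7 promoters, against 35.7% of all 32851 promoters, the CCAAT box in *Apex1* and *Msh6*, against 37.4%, and the E2F type in *Msh6*, against 1.56%. The promoters of the members had 57.3% to 71.7% G and C, against a median of 52.7% over all promoters, and the part of base composition in these matches was not tested. The promoters of *Apex1* (chr14:50924699-50924998, plus strand) and *Msh6* (chr17:87974800-87975099, plus strand), the members with the highest levels per kb, are shown with those of *Lig4* (chr8:9977631-9977930 and chr8:9976262-9976561, minus strand), the lowest. Capitals mark matches of these letters, none of which overlaps a match of another kind. A match describes the sequence and is not a measured binding site.
Apex1: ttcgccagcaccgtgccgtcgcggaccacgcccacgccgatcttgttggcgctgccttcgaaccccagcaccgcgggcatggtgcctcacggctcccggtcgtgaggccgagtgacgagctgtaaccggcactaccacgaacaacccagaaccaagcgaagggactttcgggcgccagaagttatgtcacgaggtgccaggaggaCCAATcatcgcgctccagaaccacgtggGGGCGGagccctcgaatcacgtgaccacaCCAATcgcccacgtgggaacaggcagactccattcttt
Msh6: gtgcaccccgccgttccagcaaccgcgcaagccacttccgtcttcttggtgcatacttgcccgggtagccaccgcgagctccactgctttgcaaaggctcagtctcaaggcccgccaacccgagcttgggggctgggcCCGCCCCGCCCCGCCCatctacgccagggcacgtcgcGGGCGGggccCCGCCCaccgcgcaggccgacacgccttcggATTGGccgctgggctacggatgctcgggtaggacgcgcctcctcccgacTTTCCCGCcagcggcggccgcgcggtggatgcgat
Lig4, upstream start: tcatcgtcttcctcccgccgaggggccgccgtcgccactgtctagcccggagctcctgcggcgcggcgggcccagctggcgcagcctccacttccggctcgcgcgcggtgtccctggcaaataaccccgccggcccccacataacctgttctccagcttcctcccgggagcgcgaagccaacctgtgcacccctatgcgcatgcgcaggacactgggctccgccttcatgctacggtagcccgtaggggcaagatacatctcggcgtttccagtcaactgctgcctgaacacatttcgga
Lig4, downstream start: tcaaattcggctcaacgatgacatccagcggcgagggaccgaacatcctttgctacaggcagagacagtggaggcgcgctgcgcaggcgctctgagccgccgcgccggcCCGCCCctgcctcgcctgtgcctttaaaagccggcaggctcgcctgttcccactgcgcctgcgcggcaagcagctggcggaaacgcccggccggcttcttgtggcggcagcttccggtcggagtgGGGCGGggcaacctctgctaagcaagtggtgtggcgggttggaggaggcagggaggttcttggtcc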

How the data were processed

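Total RNA of 3 WT and 3 KO cultures was depleted of rRNA and sequenced by strand as paired-end reads of 75 nt. The authors trimmed reads with cutadapt, aligned them to GRCm38 with STAR, counted fragments per gene by strand on Gencode vM19 with featureCounts (mapping quality of at least 10) and deposited a signal per gene, the count divided by the DESeq2 size factor of the library, not per length. The step between low values gave back whole fragments: 100% of values were whole within 0.01, for 5393558 to 6793520 fragments per library. Of 54446 gene IDs, 54409 matched Gencode vM21, which gave symbols, coordinates and exon lengths.

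log2(normalized count + 1) was fitted in limma 3.58.1 (R 4.3.3; eBayes with trend, two-sided) for genes averaging 10 or more, the pair being a block and Benjamini-Hochberg adjustment over all 12322 genes at 0.05. This scale understates differences between low counts. edgeR 4.0.16 and DESeq2 1.42.0 (all 24684 genes with a fragment, with its own filter) on the recovered fragments were alternatives, and edgeR called 0 genes. The methods give batches of littermates, so libraries of 1 number are a pair; the correlations of their deviations from the group means were 0.33, 0.68 and 0.17, against at most 0.28, −0.38 and 0.26 with a KO library of another number, so that in pair 3 another number correlated better. Libraries of a genotype differed by more than counting error. The limma, edgeR and DESeq2 fits were tested on simulated data. Counting errors cover counting only.

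The members and lists were chosen with earlier results of these data known. Of the other pathway genes, those were named with an unadjusted *p* under 0.05, with 1 sign in all pairs and a log2 fold change of at least 0.3, or with the highest or lowest level per kb of their role; for each member, the gene with the highest Pearson r; of the marker lists, the most abundant gene and those at 0. Some genes that this rule names are not reported here.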

Additional observations from a re-analysis of the deposited data

How the results depend on the processing

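Other pseudocounts (0.5 and 5), no filter, an average of 50 or more, TMM scaling, quantile normalization, edgeR, DESeq2, no replicate block and leaving out 1 pair were tried. Of 214 values of 18 genes, 204 had the same sign and call and 10 changed sign. *Exo1* kept its sign under all 12 alternatives (0.23 to 0.27, adjusted *p* from 0.804 to 1.00; unadjusted under 0.05 in 9 of 12, the exceptions being DESeq2 and the fits without replicate 1 and without replicate 2), as did *Rif1* (0.05 to 0.07), *Msh6* (0.0081 to 0.072) and *Xrcc4* (0.028 to 0.19). Under quantile normalization *Ung* was 0.015 and *Mlh3* 0.0051. Leaving out 1 pair gave values from −0.088 to 0.091 for *Ung*, −0.058 to 0.012 for *Apex1*, −0.058 to 0.017 for *Trp53bp1*, −0.16 to 0.20 for *Lig4*, −0.033 to 0.52 for *Tent5c*, −0.13 to 0.0051 for *Ptbp2*, −0.071 to 0.070 for *Mlh3*, 0.016 to 0.10 for *Prkdc* and 0.054 to 0.23 for *Apex2*.

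With 1 pair left out the median of the 8 members was 0.018 to 0.066, the latter without replicate 3, and that of the proliferation genes 0.039 to 0.11; the members higher in both pairs left numbered 3 to 4 of 8, those lower 0 to 1, where 22.7% to 25.6% and 25.1% to 26.5% of all genes tested were. Without the block of pairs, limma called 0 genes lower and 0 higher (170 and 126 at an unadjusted *p* under 0.05), and no call of a member changed. DESeq2, on 24684 genes, called 22 lower and 1 higher. With 1 pair left out limma called 0 to 168 lower and 0 to 3 higher, 168 and 3 of them without replicate 1. Filtering over the libraries left, an alternative added after seeing the data, gave 134 lower and 3 higher without replicate 1, against 2 lower and 0 higher without replicate 2 and 7 lower and 1 higher without replicate 3. The causes were not tested. Of the members, depth limits *Lig4* and *Xrcc4* most, with 55 to 126 fragments per library.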
